A study of Mus musculus with 65 samples.

Results

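Satellite repeats are tandem arrays of short units that make up much of the chromatin around centromeres and near chromosome ends, with scattered single blocks along the chromosome arms. The satellite copies described here are the rows of the repeat count table whose annotation gives the class Satellite, and they were 36869 of 3725827 repeat copies and 9 of 1153 repeat names. Of these copies, 9112 had at least 1 count in 65 polyadenylated RNA libraries from mouse dendritic cells and macrophages.

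Unstimulated dendritic cells grown from C57BL/6 bone marrow (BMDC) came from 4 genotypes with 3 libraries each, namely Suv39h1KO with Ifnar intact and its wild type, and Suv39h1KO with IfnarKO and its IfnarKO control. A second BMDC experiment gave 100 ng/mL lipopolysaccharide (LPS, a bacterial cell wall component) for 0, 2 and 4 h, with 3 MyD88KO and 3 TrifKO libraries at each time and with 6, 5 and 6 wild-type libraries at 0, 2 and 4 h. The wild-type libraries carry only 3 cohort numbers, most of them used again within a time. Whether libraries of the same number are separate cultures is not given, and the main tests counted each library as a replicate. The third used RAW264.7, a macrophage line of BALB/c origin whose libraries are titled as dendritic cells, carrying gRNA_1, gRNA_2 or gRNA_Ctrl, with LPS for 2 h or without LPS, and 3 libraries each. The genes that gRNA_1 and gRNA_2 target, the LPS dose for RAW264.7, the construction of the knockout alleles and whether replicates came from separate animals or clones are not given in the sources used here, so p-values measure the spread between these libraries, which may be partly technical.

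As background, Suv39h1 is a histone methyltransferase that places the repressive methyl mark of pericentromeric heterochromatin, and GSAT_MM is the major (gamma) satellite found there. SUBTEL_sa is named for its position near chromosome ends. MyD88 and Trif (gene Ticam1) are the adaptors through which the LPS receptor signals, Trif leading to type I interferon, and Ifnar is the type I interferon receptor. No role is given here for MMSAT4, IMPB_01, ZP3AR and SYNREP_MM, which are names of the repeat annotation. Copy numbers printed after a name are running numbers of the repeat table and not genome positions. The table holds neither coordinates nor sequences of the copies.

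Gene counts per library ranged from 36879570 to 95292653, with a median of 54709838. Satellite counts ranged from 35819 to 108525 per library (median 55222), which was 1.32 to 3.02% of the repeat counts. Levels of genes and repeats are given as CPM of the gene counts after scaling within an experiment by the trimmed mean of M-values (scaled CPM). Suv39h1 had 0.11 to 0.37 scaled CPM in the 6 libraries labelled Suv39h1KO, against 36.9 to 64.6 scaled CPM in the 6 others of that experiment. Myd88 was at 46.2 to 48.6 in MyD88KO at 0 h and at 83.3 to 115 at 2 and 4 h, against 72.2 to 80.7 and 269 to 461 in wild type at those times. Ifnar1 was at 122 to 161 in the IfnarKO libraries, against 173 to 218 with Ifnar intact, so its transcript was lower but present. Ticam1 transcript was at wild-type levels in most TrifKO libraries. It was at 2.94 and 2.46 scaled CPM in the libraries labelled TrifKO replicate 3 at 2 h and 4 h, and at 29.8 to 50.3 scaled CPM in the other 7, against 25.02 to 58.4 scaled CPM in wild type. The allele is not given, so these levels alone do not settle the label. Dendritic cell markers were high in BMDC (H2-Ab1 1966 to 6011 scaled CPM) and near 0 in RAW264.7 (H2-Ab1 0 to 0.225, Flt3 0 to 0.0394 scaled CPM), where the macrophage gene Csf1r stood at 1264 to 2323 scaled CPM. The granulocyte gene S100a8 ranged from 26.3 to 466.01 scaled CPM over BMDC libraries.

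Almost all satellite counts came from 3 names. MMSAT4 held 77.3% of all 3932028 satellite counts, IMPB_01 17.2% and ZP3AR 5.37%. GSAT_MM held 0.088%, SYNREP_MM 0.023% and SUBTEL_sa 0.022%. MurSAT1 had 23 counts over its 5741 copies, CENSAT_MC had 3 counts and (CATTC)n had none. These shares are not corrected for the length of the copies, which the table does not give.

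Within a name the counts were unevenly spread. MMSAT4 was the most even, with counts in 1125 of 1600 copies, 3.38% of them in its top copy, and 18.03% in its top 10. IMPB_01 had counts in 6395 of 26753 copies, and the top 10 held 49.2% of its counts. The top 10 copies held 32.2% of ZP3AR counts, 97.6% of GSAT_MM, 98.9% of SUBTEL_sa and all of SYNREP_MM. A result for GSAT_MM, SUBTEL_sa or SYNREP_MM is therefore a result for a few copies.

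Single copies were compared with all genes across the 65 libraries, after centring within each experiment, and the gene with the highest correlation was noted for each copy. This comparison was added after seeing the data, the gene is the best of 15487, and the libraries share their depth, so the correlations are a description. For MMSAT4 the best gene had a symbol beginning with Zfp, the zinc-finger protein genes, in 317 of 653 copies (48.5%). The same held for 6 of 305 IMPB_01 copies (1.97%), 5 of 162 ZP3AR copies (3.09%) and 2.68% of 97249 copies of the other repeat classes, while 2.29% of the genes compared carried such a symbol. Across 19 group means, the repeat names whose level was most like that of MMSAT4 were ORR1B1-int (r = 0.947), MurSatRep1 (0.946) and RLTR14_RN (0.912), out of 1015 names.

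Most of the satellite copies with the most counts had a best gene with a high correlation, and in several a second gene was nearly as close. MMSAT4 copy 1941956 (102901 counts) matched Zfp52 (r = 0.951, next gene 0.761), MMSAT4 copy 2127870 (75132) matched Zfp35 (0.971, next 0.717) and MMSAT4 copy 699148 (64720) matched Zfp62 (0.970, next 0.917). IMPB_01 copy 3816527 (82066 counts) matched Bhlhe40 (0.988, next 0.970), which encodes a transcription factor. IMPB_01 copy 255830 matched Ptprc (0.959, next 0.907), the leukocyte antigen CD45, and IMPB_01 copy 1954404 matched Ilrun (0.982, next 0.955). MMSAT4 copy 1943054 had no close match (Zfp994, 0.665). Whether a copy lies inside the transcript of its matched gene could not be looked up, as the copies have no coordinates here.

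The first comparison asked what loss of Suv39h1 does to satellite RNA in unstimulated BMDC. No satellite name was called, and 7 single MMSAT4 copies were called higher. GSAT_MM, the pericentromeric satellite, had 0.542, 1.28 and 1.40 scaled CPM in Suv39h1KO, against 0.682, 1.58 and 1.37 in wild type. With IfnarKO it had 0.798, 1.51 and 0.912 in Suv39h1KO, against 0.808, 2.08 and 1.04 in the IfnarKO control. The groups overlapped in both backgrounds when the cohorts were set aside. The values are in cohort order, and the cohorts of this experiment were paired. Within cohorts GSAT_MM was lower in Suv39h1KO in all but cohort 3 with Ifnar intact, and in every cohort with IfnarKO. The intervals that follow leave the pairing out.

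The log2 fold change of GSAT_MM was −0.19 ± 0.41 (SE; 95% interval −0.995 to 0.625) with Ifnar intact and −0.30 ± 0.41 (−1.11 to 0.51) with IfnarKO. Changes of either direction within these bounds were therefore not excluded. MMSAT4 averaged 937 ± 70.9 scaled CPM in Suv39h1KO and 949 ± 80.4 in wild type (SD, n = 3 each), and 929 ± 111 against 941 ± 31.1 with IfnarKO. IMPB_01 averaged 180 ± 16.96 in Suv39h1KO and 190 ± 24.4 in wild type. Of the 5 satellite names tested, 0 passed an adjusted p of 0.05 in edgeR's quasi-likelihood test with Benjamini-Hochberg adjustment over 995 names in either background, 0 had an unadjusted p under 0.05, and DESeq2 called 0. Over all names, 0.603% were called with Ifnar intact and 0.704% with IfnarKO.

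Among the single copies, 7 of 891 tested were called, all MMSAT4 and all higher in Suv39h1KO, and the same 7 were called in both backgrounds (100% of each list). The shared part of the called lists over all repeat copies was not counted, so this overlap is not a result about satellites. All but copy 3290635 met the count filter through Suv39h1KO libraries alone. For those copies only a call as higher was possible, so their shared direction is not a result. Over all copies, 0.239% were called higher with Ifnar intact and 0.234% with IfnarKO. MMSAT4 copy 3290635 had 225, 234 and 152 counts in Suv39h1KO, against 44, 31 and 6 in wild type, and 116, 249 and 282 against 15, 26 and 23 with IfnarKO. The groups did not overlap in either background. The count ratio, scaled by gene totals, was 6.14 (95% interval for counting error 4.86 to 7.84; adjusted p = 0.000283, edgeR) and 9.21 (7.12 to 12.1; adjusted p = 5.81e-05). Its matched gene Zfp979 (r = 0.966, next gene 0.669) had log2 fold changes of 2.60 (adjusted p = 0.0220) and 3.17 (adjusted p = 0.00769) in edgeR. As this gene was chosen by its correlation over these same libraries, its calls are no separate support.

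The other 6 copies were nearly absent without the knockout. MMSAT4 copy 904440 had 99, 127 and 113 counts in Suv39h1KO and none in the 3 wild-type libraries, which is at least 92.0-fold higher against a floor of 3 counts over the group (adjusted p = 2.85e-06, edgeR). With IfnarKO it had 61, 138 and 167 counts in Suv39h1KO, against 0, 0 and 2 in the control, a ratio of 167 (45.8 to 1382; adjusted p = 4.7e-06). Its matched gene was 5730507C01Rik (r = 0.923, next gene 0.911).

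MMSAT4 copy 904442 had 182 counts in Suv39h1KO and 0 in wild type (at least 49.4-fold higher), and 156 against 3 with IfnarKO (ratio 47.4, 15.9 to 232). Copies 911827, 911829 and 911833 had 136, 82 and 80 counts in Suv39h1KO with Ifnar intact and 132, 99 and 100 with IfnarKO, against 0 in both controls, so they were at least 21.7-fold to 40.1-fold higher. Copy 911831 had 147 counts in Suv39h1KO against 2 in wild type and 199 against 1 with IfnarKO. These 6 copies had adjusted p between 1.66e-06 and 0.00173 in edgeR, and in none did a Suv39h1KO library overlap a control library. As they met the count filter through Suv39h1KO libraries alone, the lack of overlap, the fold values and the p-values describe them and are no separate support. Their best genes were 5730507C01Rik, Tenm2 and Fam135b, with a second gene nearly as close in each case, and their running numbers form 2 close runs.

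Most of the called copies had few counts when summed over all libraries. Of 465 tested MMSAT4 copies with at least 1000 counts over all libraries, 1 was called, and of 144 with fewer counts, 6. These 6 drew almost all their counts from Suv39h1KO libraries. The split therefore does not measure how deeply they were counted there. The median log2 fold change of satellite copies was −0.06 in both backgrounds, beside −0.05 and −0.13 over all copies tested. Among genes, 30 of 14386 (0.209%) and 32 (0.222%) were called. They included 1 of 348 genes with a Zfp symbol, higher, in each background. Of 31 tested heterochromatin genes (histone methyltransferases, heterochromatin proteins and related factors), only Suv39h1 was called in both.

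With the replicate block, which the paired cohorts of this experiment support, 17 satellite copies were called with Ifnar intact (15 higher, 2 lower) and 14 with IfnarKO (all higher), beside 0.415% higher and 0.264% lower of all copies, and 0.413% higher. The difference in the Suv39h1KO effect without and with Ifnar was called for 0 names and 0 copies (0% of all names and 0% of all copies, edgeR); 5 satellite copies had an unadjusted p under 0.05, and DESeq2 called 0. Summed marker levels differed between the Suv39h1 groups. The dendritic cell markers (6 of 6 in the table) summed to 16943 to 19476 scaled CPM in Suv39h1KO against 13264 to 16705 scaled CPM in wild type. The 5 macrophage markers summed to 7548 to 9014 scaled CPM against 9070 to 12075 scaled CPM. Such sums rest mostly on their highest genes. Over BMDC libraries Cd74 stood at 6409 to 14152 scaled CPM and Flt3 at 4.07 to 26.7, and the macrophage marker Lyz2 stood at 2851.5 to 15994.5. With IfnarKO the dendritic cell markers summed to 16058 to 17094 scaled CPM in Suv39h1KO against 10993 to 15559 scaled CPM in the control, and the macrophage markers to 10980 to 14442 scaled CPM against 12521 to 18208 scaled CPM, with overlap. None of these markers was at 0 in BMDC, their part in the result was not tested, and in bulk RNA fewer cells of a type and less RNA per cell cannot be told apart.

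**Figure D1:**
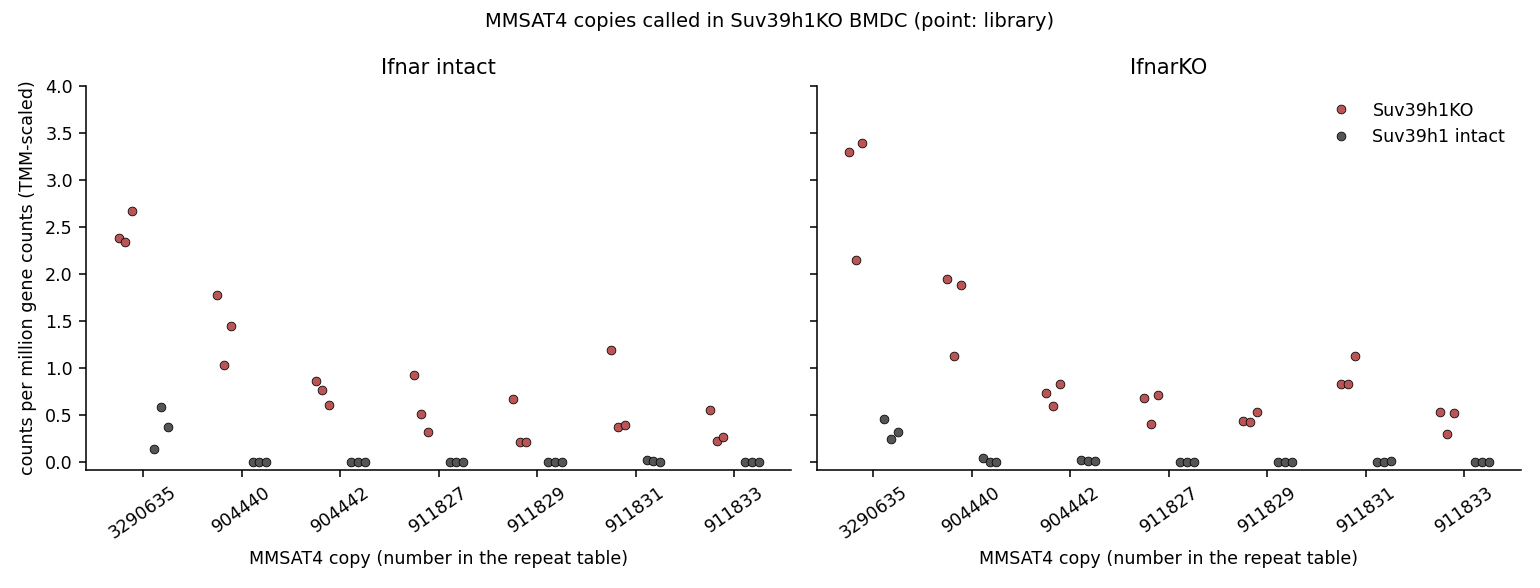
Scaled CPM of the 7 MMSAT4 copies called in Suv39h1KO, with Ifnar intact (left) and with IfnarKO (right); each point is a library and copies are named by their running number. Copy 3290635 is present in the controls and higher in Suv39h1KO, and the other 6 are at or near 0 in the controls.

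The second comparison followed satellites through LPS stimulation in wild-type BMDC. IMPB_01 and ZP3AR rose with LPS, and MMSAT4 was lower at 2 h. IMPB_01 ranged from 125 to 183 scaled CPM at 0 h (median 156), from 168 to 259 at 2 h (median 241) and from 256 to 319 at 4 h (median 285). The 4 h libraries all stood above the 0 h libraries, and the 2 h libraries overlapped with those at 0 h. The log2 fold change was 0.50 ± 0.09 at 2 h (adjusted p = 7.21e-05, edgeR) and 0.86 ± 0.09 at 4 h (adjusted p = 1.13e-09, edgeR).

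ZP3AR ranged from 30.3 to 56.0 scaled CPM at 0 h, 34.6 to 77.7 at 2 h and 58.9 to 79.5 at 4 h, with log2 fold changes of 0.36 ± 0.14 (adjusted p = 0.0381, edgeR) and 0.56 ± 0.14 (adjusted p = 0.000607). MMSAT4 ranged from 759 to 800 at 0 h, 631 to 713 at 2 h and 654 to 808 at 4 h. The 2 h libraries were all below those at 0 h, with a log2 fold change of −0.23 ± 0.06 (adjusted p = 0.00258, edgeR), while the 4 h libraries overlapped with them (−0.11 ± 0.06, adjusted p = 0.0950). The 2 h call was lost with only the compared groups (−0.22, adjusted p = 0.0728, edgeR) and in the low set alone (−0.16, adjusted p = 0.359). With the replicate block, which the paired wild-type cohorts support, MMSAT4 was called at 4 h as well (−0.11, adjusted p = 0.0229, edgeR). GSAT_MM had means of 0.752, 0.705 and 0.735 scaled CPM at 0, 2 and 4 h, with no call.

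These calls stand among many. At 2 h 3 of 5 satellite names were called, beside 44.5% of all names, and at 4 h 2 of 5, beside 65.4%. All repeats together averaged 39918, 57750 and 72451 scaled CPM at 0, 2 and 4 h. Without the scaling factors (gene totals alone) the median gene fell by 0.43 and 0.71 on the log2 scale, against −0.05 and −0.07 with them, so directions are relative to the median gene. With gene totals alone IMPB_01 had log2 fold changes of 0.11 (adjusted p = 0.31) and 0.21 (0.022), and with the repeat table as scale 0.20 (0.0012) and 0.31 (1.2e-06). ZP3AR lost its call under both scalings, with −0.04 and −0.09 under gene totals, and MMSAT4 fell further, by 0.61 and 0.76. GSAT_MM was called lower at 4 h with gene totals alone (−0.69, adjusted p = 0.0485, edgeR) and with the repeat table as scale (−0.59, adjusted p = 0.0465).

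The 2 h call of ZP3AR was also lost without any of 5 libraries: WT 2 h high set replicates 1, 2 and 3 (adjusted p = 0.12, 0.166 and 0.0702 in edgeR) and WT 0 h low set replicates 1 and 2 (0.0712 and 0.112). MMSAT4 at 4 h was called without WT 4 h low set replicate 3 (−0.15, adjusted p = 0.0302, edgeR). SUBTEL_sa at 2 h was called without WT 2 h low set replicate 1 (0.67, adjusted p = 0.0435), having missed with all libraries (0.58, adjusted p = 0.0760). The low and high sets are runs of library numbers, and all MyD88KO libraries fall in the low set and all TrifKO libraries in the high set.

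**Figure D2:**
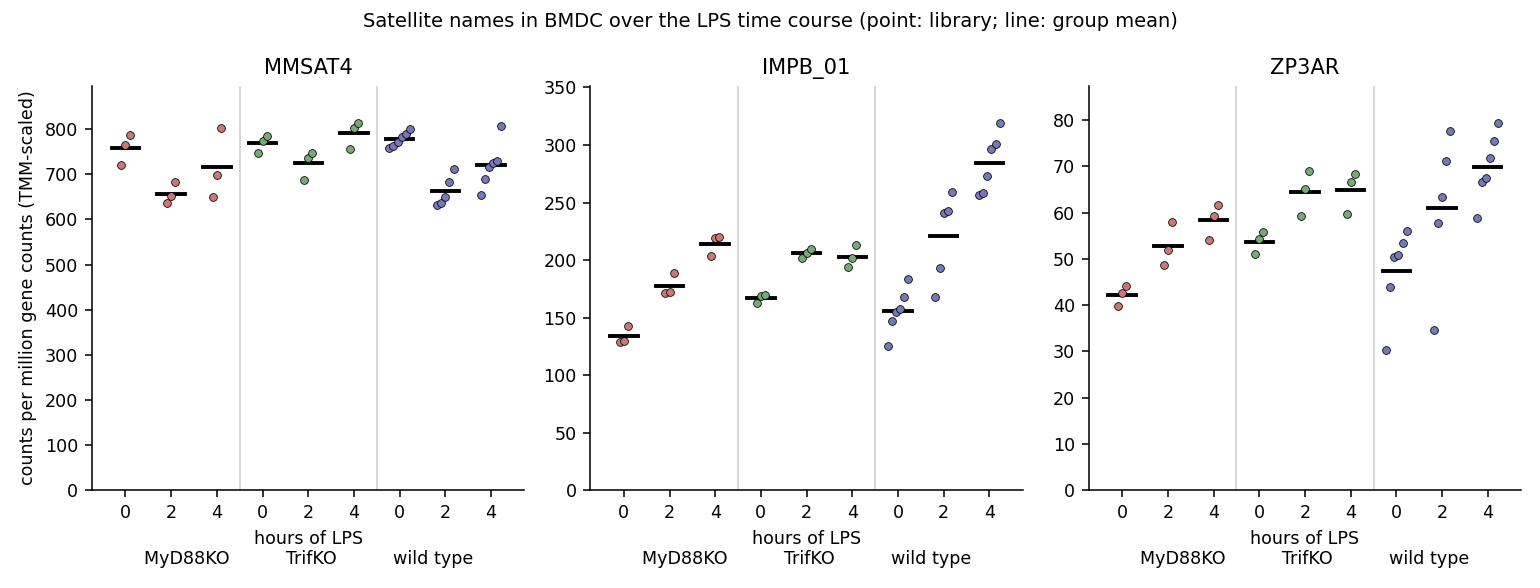
Scaled CPM of MMSAT4, IMPB_01 and ZP3AR at 0, 2 and 4 h of LPS in MyD88KO, TrifKO and wild-type BMDC; points are libraries and lines group means. Wild-type IMPB_01 averages 156, 221 and 284, and within wild type the mean of MMSAT4 is lowest at 2 h, at 662.

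The single copies show which members of a name moved. Of 885 satellite copies tested, 118 were higher and 259 lower at 2 h, beside 20.2% higher and 11.4% lower over all copies, and 157 were higher and 271 lower at 4 h, beside 28.2% and 14.4%. The lower copies were mostly MMSAT4: 225 of 572 (39.3%) were lower at 2 h and 34 higher, and 219 (38.3%) were lower at 4 h and 54 higher. Of IMPB_01 copies 52 of 202 were higher and 22 lower at 2 h, and 67 were higher and 31 lower at 4 h. Of ZP3AR copies 32 of 107 were higher and 12 lower at 2 h, and 35 and 21 at 4 h.

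The median log2 fold change over satellite copies was −0.43 at 2 h and −0.35 at 4 h, beside 0.07 and 0.23 over all copies tested. With the repeat table as scale the split was 91 higher of 472 called at 2 h and 94 higher and 520 lower at 4 h, beside 16.3% higher and 19.1% lower, and 18.9% and 29.3%, of all copies. With gene totals alone it was 85 higher and 456 lower at 2 h and 86 and 544 at 4 h, beside 14.3% and 22.4%, and 16.5% and 31.8%, of all copies. The low set taken alone gave 120 called satellite copies at 2 h and 245 at 4 h.

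Lower MMSAT4 copies were found with and without a match to a gene whose symbol begins with Zfp. The split goes by symbol alone, so zinc-finger genes with other symbols fall among the others. Of copies whose best gene was a Zfp gene, 128 of 305 (41.97%) were lower at 2 h and 29 higher. Of the others 97 of 267 (36.3%) were lower and 5 higher. Each best gene was chosen by its correlation over these same libraries, LPS included, so this split is a description. By depth, 186 of 465 copies with at least 1000 counts and 39 of 107 with fewer were lower. Among the genes themselves, 197 of 344 Zfp genes (57.3%) were lower at 2 h and 32 higher, beside 24.6% of all genes tested lower, a count added after seeing the data. Of the 31 heterochromatin genes, 16 were lower and 6 higher at 4 h, beside 35.1% lower and 30.03% higher over all genes (65.1% called). The 2 largest falls, chosen after their values were seen, were those of Kmt5c, a histone methyltransferase (−1.963 on the log2 scale), and Lbr, the lamin B receptor (−1.69), and the 2 largest rises those of Daxx, a histone chaperone (3.66), and Kdm4a, a histone demethylase (1.959). The summed level of 15 cell-division genes averaged 1377, 1332 and 685 scaled CPM at 0, 2 and 4 h, and its part in these changes was not tested.

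**Figure D3:**
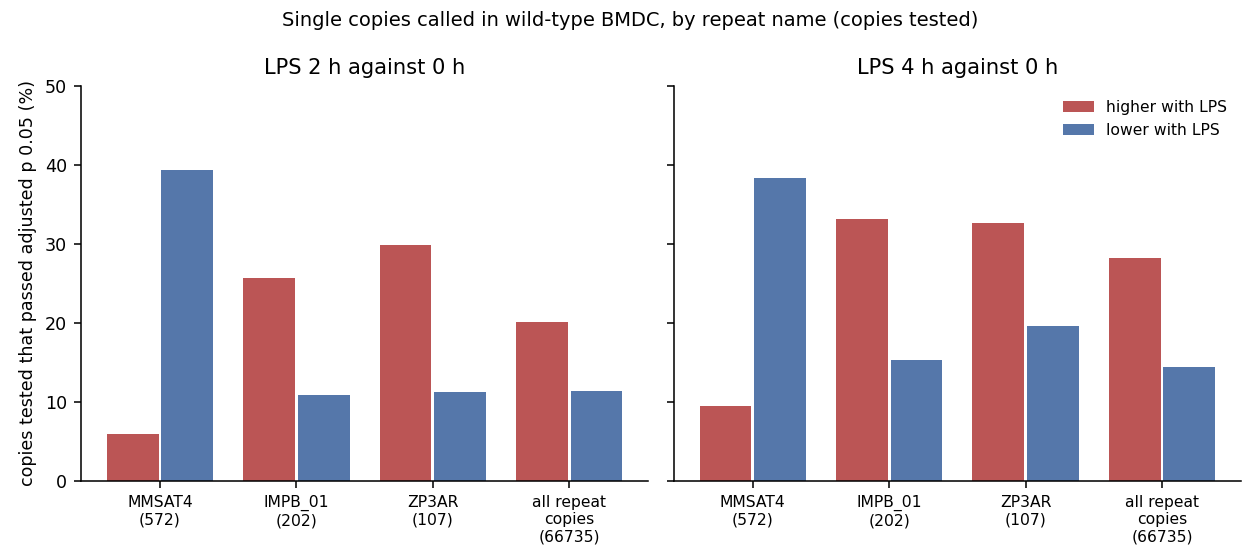
Share of tested single copies called higher or lower with LPS in wild-type BMDC, for MMSAT4, IMPB_01, ZP3AR and all repeat copies, at 2 h (left) and 4 h (right). For MMSAT4 39.3% are lower at 2 h, and over all copies 11.4%.

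The fold changes of copies and of their matched genes are given side by side as a description, because each gene was chosen for its correlation with the copy over these same libraries. IMPB_01 copy 1954404 ranged from 10.3 to 12.3 scaled CPM at 0 h (median 11.5), 12.9 to 16.9 at 2 h (15.7) and 26.5 to 36.3 at 4 h (30.3), without overlap. Its log2 fold change at 4 h was 1.45 ± 0.13 (adjusted p = 2.02e-11, edgeR), and that of Ilrun 1.51. IMPB_01 copy 255830 ranged from 12.5 to 14.4 at 0 h (13.6), 20.6 to 27.6 at 2 h (22.7) and 25.9 to 28.7 at 4 h (27.9), with 1.02 at 4 h beside 1.06 for Ptprc.

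MMSAT4 copies did not share 1 direction. Copy 699148 rose with Zfp62 (0.85 and 0.91 at 4 h), copy 3290883 fell with Zfp984 (−0.40 and −0.36), and copies 1941956 and 2127870, matched to Zfp52 and Zfp35, were not called (0.04 and −0.07). With gene totals alone copy 1941956 was called lower (−0.59, adjusted p = 0.0268, edgeR), as was copy 1941230, matched to Zfp160 (−0.40, adjusted p = 0.0165, beside 0.24 and no call with the scaling factors). IMPB_01 copy 3515934 fell by 0.55 at 4 h, and Gltp, which encodes a glycolipid transfer protein, fell by 0.57. Of the 10 copies with the most counts, MMSAT4 copy 1943054 differed most from its weakly matched gene, at −0.10 beside −0.45 for Zfp994.

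**Figure D4:**
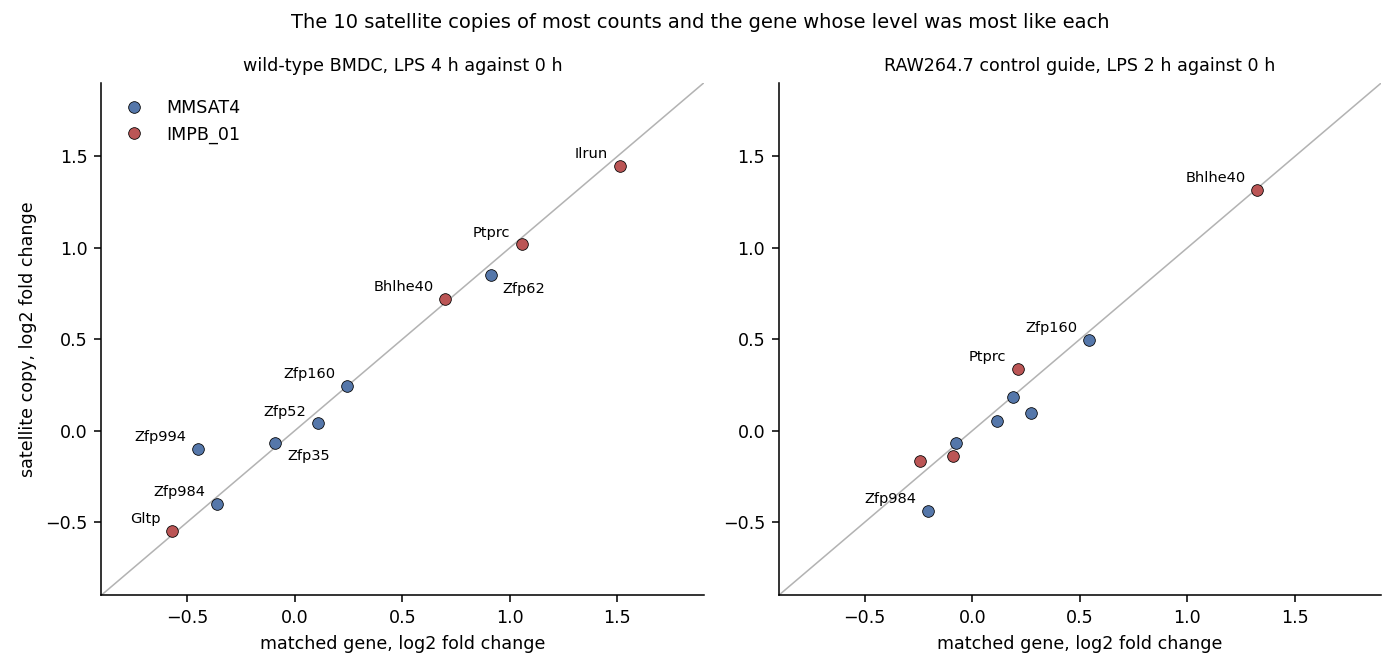
Log2 fold changes of the 10 satellite copies with the most counts (vertical) against those of their matched genes (horizontal), for LPS 4 h against 0 h in wild-type BMDC (left) and LPS 2 h against 0 h in RAW264.7 with gRNA_Ctrl (right, names only for copies beyond 0.3 in either direction). The line marks equal change, and the genes were chosen by their correlation with the copies; Ilrun lies highest on the left and Bhlhe40 on the right.

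Some IMPB_01 copies were near 0 without LPS and well above that level after it. Copy 3516547 ranged from 0.0135 to 0.311 scaled CPM at 0 h (median 0.0784), 2.87 to 14.2 at 2 h (12.3) and 11.6 to 19.03 at 4 h (14.9), without overlap between 0 h and the later times. Its log2 fold change was 6.67 ± 0.46 at 2 h (adjusted p = 1.24e-13, edgeR) and 7.24 at 4 h (adjusted p = 3.74e-15). This copy would not have met the count filter without stimulated libraries. Only a call as higher was therefore possible, and its direction and lack of overlap are no separate support. The best gene was Trex1 (r = 0.966), a DNA exonuclease, at 2.76 and 3.26, with another gene at nearly the same r (0.966).

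IMPB_01 copy 3532179 ranged from 0.390 to 1.03 at 0 h (median 0.689), 1.09 to 3.34 at 2 h (2.28) and 11.9 to 17.9 at 4 h (14.2). It matched Oas3 (r = 0.987), an interferon-induced enzyme that senses double-stranded RNA. In the unstimulated genotypes it stood at 0.0557 to 0.0682 scaled CPM in Suv39h1KO with IfnarKO and 0.0602 to 0.129 in IfnarKO, and at 0.896 to 1.49 in Suv39h1KO and 0.842 to 1.45 in wild type with Ifnar intact. The IfnarKO libraries all lay below the Ifnar-intact ones, a difference given without a test.

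Other copies far apart between times had few counts. IMPB_01 copy 323659 ranged from 0 to 0.0796 scaled CPM at 0 h, 0.0486 to 0.565 at 2 h and 1.41 to 4.39 at 4 h, and copy 2315775 from 0 to 0.0195, 0.194 to 1.60 and 0.622 to 1.45. Both met the count filter through stimulated libraries alone, so only a call as higher was possible. IMPB_01 copy 3588699 fell at 4 h (−4.17 ± 0.49, adjusted p = 9.46e-09, edgeR; Cd300lb −3.63), ranging from 0.254 to 0.636 at 0 h, 0.0254 to 0.127 at 2 h and 0 to 0.0714 at 4 h. MMSAT4 copy 1233721 (0.0796 to 0.269 at 0 h) and ZP3AR copy 3588706 (0.120 to 0.355 at 0 h) were at or near 0 at both later times. These copies met the count filter through 0 h libraries alone, so only a call as lower was possible.

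The third comparison asked how the LPS response of satellites differs in MyD88KO cells. In MyD88KO BMDC IMPB_01 rose, and no other satellite name was called. Its libraries stood at 129, 130 and 143 scaled CPM at 0 h, 172, 173 and 189 at 2 h and 203, 219 and 220 at 4 h, without overlap between times. The log2 fold change was 0.41 ± 0.13 at 2 h (adjusted p = 0.0428, edgeR) and 0.68 ± 0.13 at 4 h (adjusted p = 0.000146), with 7.85% and 36.5% of all names called. The 2 h call was lost without any 1 of the 6 MyD88KO libraries at 0 and 2 h (adjusted p 0.0519 to 0.167), and with gene totals alone (0.19, adjusted p = 0.383). With the replicate block, which the paired MyD88KO cohorts support, 2 names were called at each time: IMPB_01 at both, MMSAT4 at 2 h (−0.21, adjusted p = 0.0141, edgeR) and ZP3AR at 4 h (0.47, adjusted p = 0.00553).

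MMSAT4 averaged 758 ± 33.8, 657 ± 24.05 and 717 ± 78.5 scaled CPM at 0, 2 and 4 h in MyD88KO (SD, n = 3 each; −0.21, adjusted p = 0.110, and −0.08, adjusted p = 0.465, edgeR). Among single copies 36 were higher and 57 lower at 2 h, beside 6.18% higher and 1.08% lower over all copies, and 82 and 35 at 4 h, beside 13.1% and 2.43%. All 57 lower copies at 2 h were MMSAT4. With the replicate block 64 were higher and 89 lower at 2 h, and 93 and 71 at 4 h, beside 9.87% and 2.19%, and 17.6% and 3.93%, of all copies. With the repeat table as scale the split was 31 higher and 86 lower at 2 h and 55 and 122 at 4 h, beside 5.39% and 1.98%, and 9.34% and 5.90%, of all copies. With gene totals alone it was 24 and 93 at 2 h and 53 and 113 at 4 h, beside 4.30% and 1.94%, and 8.65% and 5.27%. Without MyD88KO 2 h replicate 1, 0 h replicate 3 or 0 h replicate 1, the number called at 2 h was 50, 52 or 55.

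The test of the difference between the MyD88KO and wild-type responses called 0 satellite names at either time (0 with an unadjusted p under 0.05; DESeq2 0), beside 0.101% and 2.72% of all names. It called 1 copy at each time, beside 0.00599% and 0.136% of all copies, and it was the same copy. IMPB_01 copy 2606962 stood at 1.17, 1.18 and 1.51 scaled CPM at 0 h in MyD88KO, 2.52, 2.67 and 3.28 at 2 h and 2.21, 2.67 and 2.92 at 4 h. In wild type it ranged from 0.841 to 1.25 at 0 h (median 1.04), 4.88 to 10.9 at 2 h (8.26) and 6.05 to 10.3 at 4 h (7.22).

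The stimulated MyD88KO libraries all lay below the wild-type ones. The difference of log2 fold changes was −1.76 ± 0.30 at 2 h (adjusted p = 0.0344, edgeR) and −1.84 ± 0.30 at 4 h (adjusted p = 0.00156). The matched gene Bcl2l11 (r = 0.992), which encodes the pro-apoptotic protein Bim, differed by −1.32 and −1.60. The 2 h call was lost without any of 9 single libraries: MyD88KO 0 h replicates 1 and 3, MyD88KO 2 h replicates 2 and 3, WT 0 h low set replicate 1 and high set replicates 2 and 3, and WT 2 h high set replicates 1 and 2. In each of these fits 0 satellite copies were called. Within the low set alone 0 copies were called at either time.

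The 4 h count also moved with single libraries. It was 5 without MyD88KO 4 h replicate 1 or WT 0 h low set replicate 2, 3 without WT 4 h low set replicate 1 or 3, and 2 without WT 4 h low set replicate 2, WT 4 h high set replicate 3 or WT 0 h high set replicate 3. With the replicate block it was 8.

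In the libraries labelled TrifKO no satellite name was called. IMPB_01 stood at 162, 169 and 170 scaled CPM at 0 h, 202, 207 and 209 at 2 h and 194, 202 and 213 at 4 h. The 0 h libraries lay below all later ones, but the log2 fold changes of 0.30 ± 0.13 and 0.28 ± 0.13 had adjusted p = 0.168 at both times in edgeR, with 1 name at an unadjusted p under 0.05 at each time, 0 called by DESeq2, and 6.04% and 9.56% of all names called. IMPB_01 was called higher at both times with the high set alone, which holds all TrifKO libraries (adjusted p = 0.00293 and 0.00447, edgeR), with only the compared groups (0.00485 and 0.0190) and with the replicate block (0.00589 and 0.00793), at log2 fold changes of 0.27 to 0.30. Among copies 32 were higher and 34 lower at 2 h, beside 3.89% and 1.44% over all copies, and 26 and 6 at 4 h, beside 3.97% and 1.4%. Of the lower copies at 2 h 26 were MMSAT4. With gene totals alone the split was 19 higher and 75 lower at 2 h and 19 and 15 at 4 h, beside 2.61% and 2.91%, and 2.77% and 2.32%, of all copies.

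The TrifKO counts rested on single libraries. Leaving out the library labelled TrifKO 0 h replicate 3 gave 33 called copies at 2 h and 19 at 4 h. Without TrifKO 0 h replicate 1 or 2 the number at 2 h was 34 or 25, without TrifKO 2 h replicate 1 or 2 it was 36 or 29, and without TrifKO 0 h replicate 2 the number at 4 h was 18.

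The response difference between TrifKO and wild type was called for 2 copies and 0 names at 2 h (0 names at an unadjusted p under 0.05; DESeq2 0), beside 1.07% of all copies and 2.31% of all names. Both copies were IMPB_01. Copy 3516547 stood at 0, 0.131 and 0.139 scaled CPM at 0 h in TrifKO, 0.174, 0.184 and 0.263 at 2 h and 0.413, 1.32 and 1.48 at 4 h, so that stimulated libraries all lay far below the wild-type ones. Its difference of log2 fold changes was −5.52 ± 0.90 at 2 h (adjusted p = 0.000482, edgeR) and −3.73 ± 0.83 at 4 h (adjusted p = 0.00731), and that of Trex1 was −2.03 and −2.02. Copy 3532179 stood at 0.260, 0.347 and 0.425 at 2 h and 0.579, 0.979 and 1.32 at 4 h in TrifKO, with differences of −2.57 ± 0.51 (adjusted p = 0.00421, edgeR) and −3.88 ± 0.49 (adjusted p = 2.49e-06), beside −2.04 and −3.65 for Oas3. In MyD88KO, which shares the wild-type libraries, copy 3516547 stood at 2.67 to 3.80 at 2 h and 7.11 to 8.45 at 4 h, and copy 3532179 at 5.79 to 8.66 at 4 h.

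At 4 h 16 copies differed between TrifKO and wild type, 5 with a higher and 11 with a lower response, beside 2.36% of all copies; 7 IMPB_01, 3 ZP3AR and 1 MMSAT4 copies were lower. IMPB_01 copy 1954404 stood at 13.4, 14.01 and 14.9 in TrifKO at 4 h, and its response differed by −1.11 ± 0.22 (adjusted p = 0.00210, edgeR) beside −1.01 for Ilrun. MMSAT4 copy 3955895 stood at 3.27, 3.28 and 3.82 in TrifKO at 4 h, against 0.952 to 2.08 in wild type (1.40 ± 0.30, adjusted p = 0.00562), beside 1.16 for Zfp146. MMSAT4 copy 1212992 stood at 2.06, 2.51 and 2.91 in TrifKO, against 0.426 to 1.79 in wild type (1.61 ± 0.40, adjusted p = 0.0190), beside 1.73 for 6720489N17Rik.

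The count of 16 was 8 without the library labelled TrifKO 0 h replicate 3 and 9 without replicate 1, and at 2 h the count of 2 was 7 without WT 2 h low set replicate 1 and 4 without TrifKO 2 h replicate 1. The split at 4 h was 23 higher and 9 lower with the repeat table as scale and 39 and 6 with gene totals alone, beside 0.953% and 1.66%, and 1.18% and 1.28%, of all copies. Among names IMPB_01 had a smaller rise at 4 h in TrifKO than in wild type, by −0.59 ± 0.16 (adjusted p = 0.00824, edgeR), beside 16.3% of all names called. That call was lost with the repeat table as scale (−0.21, adjusted p = 0.074) and with gene totals alone (−0.17, adjusted p = 0.51).

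The last comparison was LPS in RAW264.7 cells. With gRNA_Ctrl 5 of 6 satellite names were higher at 2 h, with gRNA_1 4 and with gRNA_2 3, beside 55.5%, 56.6% and 60.5% of all names called. IMPB_01 rose in all 3: it averaged 177, 174 and 176 scaled CPM at 2 h with gRNA_1, gRNA_2 and gRNA_Ctrl, against 123, 123 and 130 at 0 h (log2 fold changes 0.53, 0.51 and 0.43, adjusted p = 2.41e-08, 3.71e-08 and 7.26e-07, edgeR). All repeats together rose as well, to 59153, 59477 and 62396 scaled CPM at 2 h, against 44030, 42912 and 46213 at 0 h. By gene totals alone IMPB_01 averaged 167, 164 and 165 CPM at 2 h, against 130, 130 and 139 at 0 h. ZP3AR rose by 0.28, 0.34 and 0.26, but this turned to −0.02, −0.01 and −0.03 with the repeat table as scale, and with gene totals alone none of the 3 was called. MMSAT4 was not called (0.06, 0.09 and 0.10), but it was called higher without gRNA_2 2 h C1 (0.15, adjusted p = 0.0372, edgeR) or gRNA_Ctrl 2 h C3 (0.14, adjusted p = 0.0476). With the repeat table as scale it fell by 0.24, 0.26 and 0.20, and with gene totals alone it was at −0.11, −0.08 and −0.08, not called. The median gene fell by 0.29 to 0.35 with the repeat table as scale, and by 0.18 for each guide with gene totals alone.

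GSAT_MM rose in RAW264.7. It stood at 1.31, 1.46 and 1.52 scaled CPM at 2 h with gRNA_1, against 0.443, 1.11 and 0.540 at 0 h. With gRNA_2 it stood at 1.28, 1.29 and 1.35 at 2 h, against 0.739, 0.544 and 0.683 at 0 h. With gRNA_Ctrl it stood at 1.76, 1.89 and 1.61 at 2 h, against 1.05, 1.14 and 0.971 at 0 h.

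No 2 h library overlapped a 0 h library of its guide. The log2 fold changes were 0.95 ± 0.22, 1.00 ± 0.23 and 0.74 ± 0.21 (adjusted p = 0.000499, 0.000390 and 0.00388, edgeR). With the repeat table as scale the call was lost for gRNA_Ctrl (0.44, adjusted p = 0.083) and held for the other guides. The test of RAW264.7 against BMDC was not made, because the cells were handled in separate experiments.

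SUBTEL_sa had 0.517, 0.436 and 0.433 scaled CPM at 2 h with gRNA_1, against 0.233, 0.254 and 0.223 at 0 h (0.95 ± 0.29, adjusted p = 0.00717, edgeR). With gRNA_Ctrl it had 0.504, 0.619 and 0.627 at 2 h, against 0.354, 0.278 and 0.441 at 0 h (0.71 ± 0.28, adjusted p = 0.0308), and this call was lost without any of gRNA_Ctrl 0 h C1 or C2 and 2 h C2 or C3. With gRNA_2 it missed (0.60, adjusted p = 0.0760), but it was called without gRNA_2 0 h C2 (0.92, adjusted p = 0.0236) or 2 h C1 (0.74, adjusted p = 0.0480). With the repeat table as scale neither call held (0.66, adjusted p = 0.066 with gRNA_1, and 0.42, adjusted p = 0.226 with gRNA_Ctrl, edgeR), and with gene totals alone the gRNA_Ctrl call did not (0.53, adjusted p = 0.138).

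Among single copies 107, 108 and 113 were higher with gRNA_1, gRNA_2 and gRNA_Ctrl, beside 16.7%, 17.6% and 15.8% of all copies, and 44, 41 and 42 were lower, beside 4.5%, 4.28% and 4.79%, of 857 satellite copies tested. IMPB_01 supplied 56, 55 and 54 of the higher copies from 174 tested, and MMSAT4 26, 26 and 35 from 576. With the repeat table as scale the split was 81 higher and 145 lower, 81 and 146, and 74 and 132 for gRNA_1, gRNA_2 and gRNA_Ctrl, beside 11.2 to 11.8% higher and 9.60 to 10.2% lower of all copies. With gene totals alone it was 91 and 92, 89 and 71, and 84 and 87, beside 12.5 to 14.01% and 6.54 to 7.39%. IMPB_01 copy 3816527, matched to Bhlhe40, had log2 fold changes of 1.18, 1.01 and 1.32, and Bhlhe40 1.19, 1.01 and 1.32. ZP3AR copy 511668 fell with gRNA_Ctrl, at 0.550, 0.638 and 0.551 scaled CPM at 2 h against 2.21, 2.89 and 1.83 at 0 h (−1.99 ± 0.23, adjusted p = 5.31e-08, edgeR), beside −0.61 for Gigyf1, its best and not clearly separate match (r = 0.881, next gene 0.877). Of the 31 heterochromatin genes 19 were lower and 1 higher with gRNA_Ctrl, beside 25.3% lower and 26.3% higher over all genes (51.6% called).

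**Figure D5:**
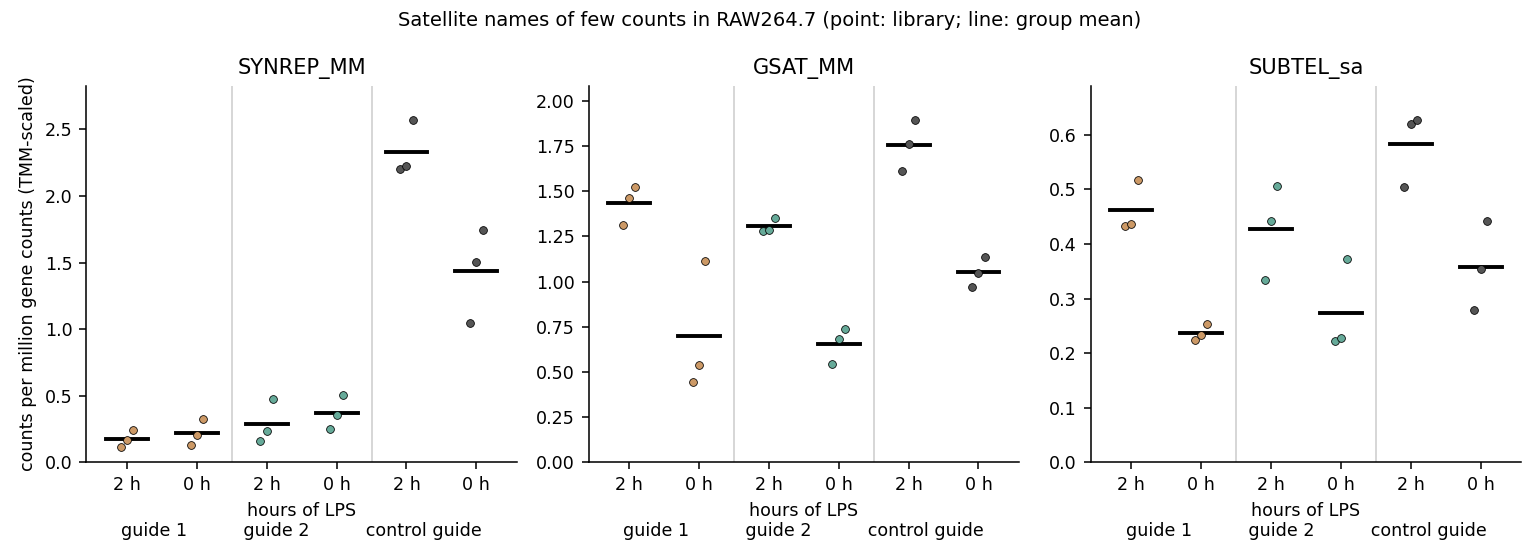
Scaled CPM of SYNREP_MM, GSAT_MM and SUBTEL_sa in RAW264.7 libraries with gRNA_1 (guide 1), gRNA_2 (guide 2) and gRNA_Ctrl (control guide), at 2 h of LPS and at 0 h; points are libraries and lines group means. GSAT_MM is higher at 2 h in every guide, and SYNREP_MM is high in gRNA_Ctrl alone, at 1.43 scaled CPM at 0 h.

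The guides differed in SYNREP_MM. It had 14, 9 and 11 counts at 0 h with gRNA_1 and 41, 27 and 10 with gRNA_2, against 102, 49 and 79 with gRNA_Ctrl. In scaled CPM these were 0.326, 0.127 and 0.205 with gRNA_1 and 0.505, 0.359 and 0.253 with gRNA_2, against 1.51, 1.05 and 1.74 with gRNA_Ctrl, without overlap. The log2 fold change was −2.79 ± 0.33 for gRNA_1 (adjusted p = 1.5e-06, edgeR) and −1.87 ± 0.28 for gRNA_2 (adjusted p = 0.000114), beside 1.71% and 5.13% of all names called.

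Leaving out any 1 library at 0 h gave −3.14 to −2.46 and −2.16 to −1.72, all called, and without the top copy the values were −2.35 and −1.79. DESeq2 gave no adjusted p for gRNA_2. At 2 h SYNREP_MM had 12, 17 and 7 counts with gRNA_1 and 12, 7 and 30 with gRNA_2, against 96, 137 and 117 with gRNA_Ctrl. Within gRNA_Ctrl it rose with LPS (0.70 ± 0.23, adjusted p = 0.0111, edgeR), a call lost without gRNA_Ctrl 0 h C2 (0.53, adjusted p = 0.0692) or 2 h C2 (0.62, adjusted p = 0.0561), with the repeat table as scale (0.40, adjusted p = 0.182) and with gene totals alone (0.52, adjusted p = 0.0769). In BMDC no library exceeded 0.161 scaled CPM. Both guide comparisons share the gRNA_Ctrl libraries, and whether the cells of each guide are 1 clone or a pool is not given in the sources used here.

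Of single copies 2 of 857 differed with gRNA_1 and 5 with gRNA_2 at 0 h, beside 0.241% and 0.367% of all copies. SYNREP_MM copy 2549777 stood at 0.140, 0.0282 and 0.0186 scaled CPM with gRNA_1 and 0.246, 0.133 and 0.101 with gRNA_2, against 0.693, 0.493 and 0.795 with gRNA_Ctrl (−3.54 ± 0.48, adjusted p = 3.92e-05, and −1.95, adjusted p = 0.00818, edgeR). MMSAT4 copy 3287523 was higher with both guides (1.32, adjusted p = 0.00491, and 1.07, adjusted p = 0.0411). With gRNA_2, IMPB_01 copies 3816527 (0.71, adjusted p = 0.00419; Bhlhe40 0.69) and 3287008 (1.07, adjusted p = 0.0463; matched to the TNF receptor gene Tnfrsf1b) were higher and ZP3AR copy 1936360 was lower (−1.12, adjusted p = 0.0101).

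The gRNA_1 count was 4 without gRNA_Ctrl 0 h C3. The gRNA_2 count was 1 without gRNA_2 0 h C2 or gRNA_Ctrl 0 h C1, 2 without gRNA_2 0 h C1, and 3 without gRNA_2 0 h C3 or gRNA_Ctrl 0 h C2 or C3. GSAT_MM was not called between guides at 0 h (−0.51 for gRNA_1, adjusted p = 0.333, and −0.68 for gRNA_2, adjusted p = 0.0838, edgeR), but without gRNA_1 0 h C2 it was called for gRNA_1 (−1.08, adjusted p = 0.00996).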

How the data were processed

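The repeat and gene tables of counts were deposited by the authors, and their values are whole-number read counts per repeat copy and per gene, not normalized. Polyadenylated RNA was made into stranded libraries, per the labels' protocols, and STAR, HOMER, DESeq2 and mm10 are named in the submitters' processing notes. How reads that map to several places were treated is not given in the sources used here; it bears on every repeat copy, since near-identical copies can share reads, and single-copy counts are uncertain to that extent.

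Satellite copies were summed by name. Counts of names and of single copies were tested with edgeR 4.0.16 (R 4.3.3), using its quasi-likelihood F test with gene totals times TMM factors as offsets, for features with at least 10 counts in 3 libraries of an experiment. Benjamini-Hochberg adjustment ran over all names, or all copies, tested, with a threshold of 0.05. Fits held all groups of an experiment and no covariate. Standard errors were taken as the log2 fold change over the root of F. Intervals of log2 fold changes are 1.96 standard errors to each side, a normal approximation to 95%. Count ratios carry exact intervals for counting error only, and a floor of 3 counts for a group at 0. Scaled CPM is set within an experiment, so levels of different experiments stand side by side only. The test was checked on simulated counts.

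Replicates in the Suv39h1 experiment, wild type and MyD88KO paired by cohort number: deviations from group means correlated at 0.268 or more, 0.137 or more and 0.484 or more in every same-numbered pair. In the TrifKO libraries (lowest pair −0.264) and RAW264.7 libraries (lowest 0.00341) the likeness was weak. Same-numbered pairs averaged 0.129 and 0.123 there, against −0.056 and −0.061 for other pairs.

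The satellite copies and gene lists were chosen with earlier results of these data known. The copies named are the 10 with the most counts and, per comparison, up to 4 rises and 4 falls of largest size past the threshold; not all of the 75 are printed. Alternatives were DESeq2 1.42.0, other scalings, other count filters, subsets of libraries, the replicate block and each library left out.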

Additional observations from a re-analysis of the deposited data

Results flagged for a closer look

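In groups of 4 to 10 libraries, 48 sets of values were examined for 1 library far from the rest, and chance alone flags about 1 in 20. SYNREP_MM stood at 0.124 scaled CPM in WT 4 h low set replicate 1, apart from the other 5 libraries of its group. MMSAT4 copy 2127870 stood at 18.5 in WT 4 h low set replicate 3, MMSAT4 copy 3290883 at 14.2 in WT 2 h low set replicate 1 and MMSAT4 copy 1941230 at 17.1 in WT 2 h low set replicate 3.

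Response differences between genotypes that passed the test are flagged because the effect of LPS differed from that in wild type. For MyD88KO this was IMPB_01 copy 2606962, with a difference of log2 fold changes of −1.76 at 2 h and −1.84 at 4 h. For TrifKO at 2 h these were IMPB_01 copies 3532179 (−2.57) and 3516547 (−5.52). At 4 h the same copies differed by −3.88 and −3.73. Others at 4 h were IMPB_01 copy 1954404 (−1.11), IMPB_01 copy 3084122 (−4.26), ZP3AR copy 3944324 (−4.58), ZP3AR copy 3944048 (3.41), MMSAT4 copy 1212992 (1.61), MMSAT4 copy 3955895 (1.40) and MMSAT4 copy 1233723 (5.40). Copy 1233723 had 0 counts in all wild-type libraries at 4 h, so its fitted difference depends on the prior count. The name IMPB_01 differed by −0.59 at 4 h. Most libraries labelled TrifKO held Ticam1 counts at wild-type levels, and its part in these differences was not tested.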

How the results depend on the processing

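The number of satellite names called, with all libraries and the main scaling, was 3 for wild type at 2 h, 1 for MyD88KO at each time, 0 for TrifKO at each time, 1 for the TrifKO difference at 4 h, 5 for RAW264.7 with gRNA_Ctrl and 1 for gRNA_2 against gRNA_Ctrl. For wild type at 2 h it was 1 with gene totals alone, 1 with only the compared groups and 0 in the low set. For MyD88KO at 2 h it was 2 with the replicate block and with summed wild-type cohorts, and 0 with no count filter and without the top copy of each name. For MyD88KO at 4 h it was 2 with DESeq2, the replicate block, gene totals alone, no top copy, only the compared groups, the low set and summed cohorts, and 3 with the repeat table as scale. For TrifKO at 2 h it was 1 with the replicate block, gene totals alone and summed cohorts, and 2 with only the compared groups and the high set; at 4 h it was 1 with the block and summed cohorts, and 2 with the compared groups and the high set. The TrifKO difference at 4 h became 0 with the repeat table as scale, gRNA_Ctrl became 2 with it and with gene totals alone, and gRNA_2 against gRNA_Ctrl became 0 with DESeq2 and 2 with only the compared groups.

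For copies, the replicate block gave 17 and 14 in Suv39h1KO (7 and 7 without it), 153 in MyD88KO at 2 h (93), 114 and 54 in TrifKO (66 and 32), 8 for the MyD88KO difference at 4 h (1), 5 and 44 for the TrifKO difference (2 and 16), and 4 for gRNA_1 against gRNA_Ctrl (2). Same-numbered TrifKO and RAW264.7 libraries were only weakly alike. The repeat table as scale gave 11 in Suv39h1KO with Ifnar intact, 177 in MyD88KO at 4 h (117), 2 for the MyD88KO difference at 4 h, 32 for the TrifKO difference at 4 h and 227 for gRNA_2 with LPS (149). Gene totals alone gave 0 and 7 for the MyD88KO difference and 45 for the TrifKO difference at 4 h. DESeq2 gave 8 for the MyD88KO difference at 4 h and 7 and 36 for the TrifKO difference. A minimum of 5 counts gave 12 in Suv39h1KO with IfnarKO, 57 in MyD88KO and 40 in TrifKO at 2 h. Only the compared groups gave 122 and 55 in TrifKO, 0 for the MyD88KO difference at 2 h and 26 for the TrifKO difference at 4 h. The low set gave 120 and 245 in wild type (377 and 428) and 0 and 0 for the MyD88KO difference. The high set gave 103 and 54 in TrifKO and 5 for its difference at 2 h, and summed cohorts 107, 50 and 4.

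Directions turned, with a call on at least 1 side, for ZP3AR in wild type with gene totals alone (−0.036 and −0.091), for MMSAT4 copies 1941230 (−0.40) and 1941956 (−0.59) at 4 h with it, for MMSAT4 copy 699148 with gRNA_2 (−0.30), and, with the repeat table as scale, for MMSAT4 (−0.24, −0.26 and −0.20) and ZP3AR (−0.017, −0.010 and −0.028) with gRNA_1, gRNA_2 and gRNA_Ctrl. Uncalled MMSAT4 values also changed sign, in RAW264.7 with gene totals alone (−0.11, −0.08 and −0.08) and in TrifKO at 4 h with the repeat table as scale (−0.14) and gene totals alone (−0.19). The cause was not tested.

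Leaving out 1 library gave 2 to 4 names in wild type at 2 h, 2 to 3 at 4 h, 0 for MyD88KO at 2 h, 3 to 5 for gRNA_Ctrl, 3 to 5 for gRNA_2 with LPS and 1 to 2 for gRNA_1 against gRNA_Ctrl. For copies it gave 7 to 8 and 7 in Suv39h1KO, 317 to 388 and 383 to 415 in wild type, 50 to 63 and 79 to 104 in MyD88KO, 25 to 52 and 18 to 37 in TrifKO, 0 to 1 and 1 to 5 for the MyD88KO difference, 2 to 7 and 8 to 20 for the TrifKO difference, 122 to 143, 121 to 142 and 124 to 135 for gRNA_1, gRNA_2 and gRNA_Ctrl with LPS, and 2 to 4 and 1 to 3 for the guides. Over single names and copies, 5696 values kept their direction and side of the threshold, 187 lost a call, 99 gained one, 11 turned with a call on at least 1 side, and 344 had the other sign with no call on either side.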
